A study of Mus musculus with 9 samples.

Results

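The Notch pathway was followed here through 10 genes in RNA-seq counts from neonatal mouse ventricular myocytes (NMVMs): the receptor genes Notch1, Notch2 and Notch3, the ligand genes Jag1 and Dll1, and the target genes Hes1, Hey1, Hey2, Heyl and Nrarp. They were taken by gene name from the 55401 genes of the count table, and all 10 were present. NMVMs are heart muscle cells isolated from the ventricles of newborn mice, here wild-type C57BL/6J pups 1 day old. The 9 libraries of poly(A)-enriched RNA form 3 groups of 3. Control cultures stayed in normal oxygen and full medium with 10% serum. Hypoxia cultures were held for 6 h in a closed chamber with an oxygen absorber and medium lacking both glucose and serum, and hypoxia + rSRGN cultures received recombinant serglycin (SRGN, the core protein of a proteoglycan) in the same medium for those 6 h. Low oxygen came together with the change of medium, and against control these cannot be told apart. The dose of rSRGN is not given in the labels, nor whether the 3 libraries of a group came from separate isolations, so the p-values below measure the spread between these libraries, which may be technical.

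In Notch signalling, a ligand on one cell binds a receptor on its neighbour, the receptor is cut, and its freed intracellular part enters the nucleus. There it joins the DNA-binding protein RBPJ and a Mastermind-like coactivator and switches on target genes, among them the HES and HEY repressors. In the heart the pathway acts in valve, chamber and vessel formation, and it is known to be used by immature muscle cells, endothelial cells and mural cells of vessels.

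Total counts ran from 21669017 to 22781557 in control, from 16583985 to 18148474 in hypoxia and from 16640239 to 20826701 in hypoxia + rSRGN, and 16762 genes were deep enough to test. Of the 10 members 9 were tested, and Nrarp was left out for its low counts. Levels are given as FPKM, fragment counts divided by exon length and by the TMM-scaled library size, and differences as log2 fold changes. A gene was called where the adjusted p of edgeR's quasi-likelihood test was below 0.05 and the fold change at least 1.5. The cultures carried the markers of their labelled cell type in every library, with a summed level of 11 cardiomyocyte markers (Tnnt2, Myh6, Actn2 and others) of 9951 to 11669 FPKM in control. That sum was 1020 to 1777 FPKM in hypoxia and 2027 to 2500 FPKM in hypoxia + rSRGN. Markers of other cells were present too, with fibroblast markers summing to 1181 to 1374, 2442 to 2757 and 2611 to 2691 FPKM in the 3 groups in the same order, and mural markers (smooth muscle and pericyte) to 681 to 804, 925 to 1070 and 824 to 872 FPKM. Endothelial markers summed to only 16.4 to 23.2, 11.2 to 14.8 and 11.4 to 14.4 FPKM. Epicardial markers summed to 64.4 to 74.0, 281 to 308 and 266 to 291 FPKM. Of 8 macrophage markers 7 were called lower in hypoxia than in control and 1, Cx3cr1, higher, and Adgre1 and C1qa were at 0 in a hypoxia library. In bulk RNA, fewer cells of a type and less RNA per cell cannot be told apart, and this holds for every level below.

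Transcripts of the 3 receptors and of Jag1 stood higher in hypoxia than in control, and those of Hes1, Hey2 and Heyl stood lower. Notch1 and Jag1 rose and Hey2 fell, by the rule above, where 26.4% of all genes were called higher and 25.1% lower. The Notch1 call lay at the edge of the fold limit, and the adjusted p of Hes1 and Heyl was above 0.05 in some alternatives. With rSRGN against hypoxia alone 0 members were called (3.13% of all genes), while Notch1 and Notch2 were higher and Hes1 lower by less than the fold limit (10.5% of all genes higher and 6.11% lower at the adjusted p alone), and for Hes1 the adjusted p was below 0.05 in only 6 of 16 alternatives.

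Notch2, at chr3:98013527-98150361 (GRCm38, plus strand), was the most abundant receptor gene. Its level was 7.59, 8.35 and 8.15 FPKM in the control libraries, 10.5, 9.72 and 10.2 FPKM in hypoxia, and 11.95, 12.8 and 12.3 FPKM in hypoxia + rSRGN. The 3 groups did not overlap, with control lowest and hypoxia + rSRGN highest. How many of all genes separate in this way was not counted, here or below. Against control, the log2 fold change in hypoxia was 0.34 (SE 0.071, edgeR adjusted p = 2.27e-04), below the fold limit. With rSRGN against control it was 0.62 (SE 0.071, edgeR adjusted p = 6.83e-08) and the gene was called. This call was lost, on the fold limit alone, when control replicate 1 was left out or with a filter of at least 1 count over all libraries (both 0.58).

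Notch1 (chr2:26457903-26516663, minus strand), the receptor best known from endothelium and early heart development, was less abundant. It stood at 1.19, 1.75 and 1.53 FPKM in control, 2.49, 2.38 and 1.95 FPKM in hypoxia and 2.87, 2.99 and 2.94 FPKM in hypoxia + rSRGN, from 377 to 884 fragments per library. Again the groups did not overlap and the order was the same as for Notch2. Notch1 rose 1.53-fold in hypoxia (log2 fold change 0.61, SE 0.12, edgeR adjusted p = 1.08e-04) and 1.97-fold in hypoxia + rSRGN against control (0.98, SE 0.12, edgeR adjusted p = 2.03e-07). The first of these calls lay at the edge of the fold limit: its log2 fold change was 0.45 without control replicate 1, 0.54 without hypoxia replicate 1, 0.58 without hypoxia replicate 2 and 0.56 with a filter of at least 1 count over all libraries, with edgeR adjusted p between 6.83e-07 and 0.00193 over all alternatives. Of the exon bases of Notch1, 9.76% also lie in exons of other annotated genes (0610009E02Rik and Gm13568, both on the other strand), where fragments counted without regard to strand cannot be assigned. The shared part was 5.02% for Notch2 (Gm42820, same strand) and 6.03% for Notch3 (Gm17276, antisense), and 0 for Jag1, Dll1, Hes1, Hey1, Hey2 and Heyl.

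Notch3 (chr17:32120820-32166852, minus strand), a receptor known chiefly from mural cells, had 2.11, 2.76 and 3.09 FPKM in control, 4.10, 3.55 and 3.87 FPKM in hypoxia and 3.93, 4.32 and 3.92 FPKM in hypoxia + rSRGN. Both hypoxic groups lay above control and overlapped each other. The log2 fold change in hypoxia was 0.54 (SE 0.12, edgeR adjusted p = 3.40e-04), just under the fold limit, and passed it with library size alone as scaling (0.61), without control replicate 3 (0.65), without hypoxia replicate 2 (0.59) or without the limit. With rSRGN against control Notch3 rose by 0.62 (SE 0.12, edgeR adjusted p = 7.56e-05), a call lost on the fold limit without control replicate 1 (0.47), without hypoxia + rSRGN replicate 2 (0.57) and with a filter of at least 1 count (0.57). Of the 9 mural markers, 2 were called higher and 2 lower in hypoxia than in control, and the part of mural cells in the Notch3 level was not tested.

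Jag1 (chr2:137081456-137116644, minus strand), a membrane ligand of the Jagged type, was the most abundant of the Jagged and Delta ligand genes. It measured 11.7, 11.4 and 11.99 FPKM in control, 24.7, 18.7 and 21.6 FPKM in hypoxia and 21.2, 22.4 and 21.2 FPKM in hypoxia + rSRGN. All 6 hypoxic libraries lay above all 3 control libraries, and the hypoxia + rSRGN libraries lay within the range of hypoxia. Jag1 rose 1.85-fold in hypoxia (log2 fold change 0.89, SE 0.085, edgeR adjusted p = 4.17e-09) and 1.85-fold in hypoxia + rSRGN (0.89, SE 0.085, edgeR adjusted p = 4.74e-09), and each call held under every alternative run. In hypoxia against control, 8 of 10 fibroblast and 5 of 5 epicardial markers were called higher, and their part in the levels of Jag1 and the receptors was not tested.

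Dll1 (chr17:15367354-15376872, minus strand), a ligand of the Delta type, was near the lower end of what the libraries could measure. It had 9, 3 and 5 fragments in control, 19, 8 and 5 in hypoxia and 9, 9 and 11 in hypoxia + rSRGN. The groups overlapped, and the 19 fragments of hypoxia replicate 1 were the highest value. Summed over libraries, control was 0.434 times hypoxia with an exact 95% interval of 0.226 to 0.806, which covers counting error and not the spread between libraries. The log2 fold change of Dll1 in hypoxia against control was 1.17 with a 95% interval of -0.08 to 2.42 (edgeR adjusted p = 0.0864), so a change could not be shown. It was called only when hypoxia replicate 3 was left out (1.49, edgeR adjusted p = 0.0495, against a range of 0.0495 to 0.541 over the alternatives), and leaving out 1 library gave 0.52 (without hypoxia replicate 1) to 1.61 (without control replicate 1).

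Hes1 (chr16:30064384-30067796, plus strand), a repressor and the classical Notch target, was the most abundant target gene. Its level was 27.8, 25.7 and 24.0 FPKM in control, 17.9, 22.9 and 20.0 FPKM in hypoxia and 12.8, 15.6 and 19.1 FPKM in hypoxia + rSRGN. Both hypoxic groups lay below control, and they overlapped each other. In hypoxia the log2 fold change was -0.35 (SE 0.12, edgeR adjusted p = 0.0107), within the fold limit, and without hypoxia replicate 1 it was -0.27 (edgeR adjusted p = 0.0573, with 9.53e-05 to 0.0573 over the alternatives). In hypoxia + rSRGN Hes1 fell by 0.70 against control on the log2 scale (SE 0.12, edgeR adjusted p = 1.82e-05), which was -0.57 and not called without hypoxia + rSRGN replicate 1, the lowest library.

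Hey2 (chr10:30832359-30842801, minus strand), a HEY repressor known for its expression in the compact ventricular muscle wall, changed the most among the members tested. It measured 6.42, 5.52 and 4.91 FPKM in control, 1.68, 1.16 and 0.782 FPKM in hypoxia and 1.23, 1.38 and 1.17 FPKM in hypoxia + rSRGN. Every hypoxic library lay below every control library by a wide margin, and the hypoxia + rSRGN values fell inside the range of hypoxia. Hey2 fell by 2.21 on the log2 scale in hypoxia (SE 0.18, edgeR adjusted p = 2.43e-10), to 0.216 of its control level, and fell by 2.15 in hypoxia + rSRGN against control (SE 0.18, edgeR adjusted p = 3.70e-10). All 11 cardiomyocyte markers were also called lower in both comparisons, with medians of -3.74 and -2.98, and their part in the Hey2 result was not tested.

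Heyl (chr4:123233556-123249875, plus strand), the third HEY gene, went the same way by less. It stood at 1.99, 2.24 and 2.89 FPKM in control, 1.69, 1.90 and 1.79 FPKM in hypoxia and 1.36, 1.54 and 1.14 FPKM in hypoxia + rSRGN. The 3 groups did not overlap, with control highest and hypoxia + rSRGN lowest. Its log2 fold change was -0.40 in hypoxia (SE 0.15, edgeR adjusted p = 0.0236, not called), and it fell by 0.81 in hypoxia + rSRGN against control (SE 0.16, edgeR adjusted p = 9.11e-05). The value in hypoxia was -0.25 without control replicate 3 (edgeR adjusted p = 0.188, with 0.00687 to 0.188 over the alternatives), and the adjusted p was also above 0.05 without hypoxia replicate 1 (0.0728) and with library size alone (0.0537).

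Hey1 (chr3:8663359-8667256, minus strand) was the least abundant HEY gene by the mean of each group. In hypoxia replicate 3 Hey1 stood above Hey2 (0.887 against 0.782 FPKM). It ranged from 0.537 to 0.666 FPKM in control, from 0.460 to 0.887 in hypoxia and from 0.428 to 0.693 in hypoxia + rSRGN. The groups overlapped throughout. The log2 fold change in hypoxia against control was 0.04 with a 95% interval of -0.63 to 0.71 (edgeR adjusted p = 0.915), wide enough to hold a change in either direction.

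Nrarp (chr2:25180758-25183339, plus strand), an ankyrin-repeat protein that damps Notch signalling as a feedback target, gave 5, 5 and 6 fragments in control, 0, 0 and 1 in hypoxia and 1, 1 and 1 in hypoxia + rSRGN. The control libraries thus held 16 fragments together, against 1 and 3. Scaled for depth, control was 13.1 times hypoxia with an exact 95% interval of 2.03 to 548, and 4.63 times hypoxia + rSRGN (1.32 to 24.8). These intervals cover counting error only, and no test across genes was made. Of the 2582 exon bases of Nrarp, 2051 (79.4%) are shared with the antisense gene Gm38287, which was at 0 counts, and by the default of the counting program a fragment that fits both genes is not counted. The part of this overlap in the low counts was not tested.

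**Figure D1:**
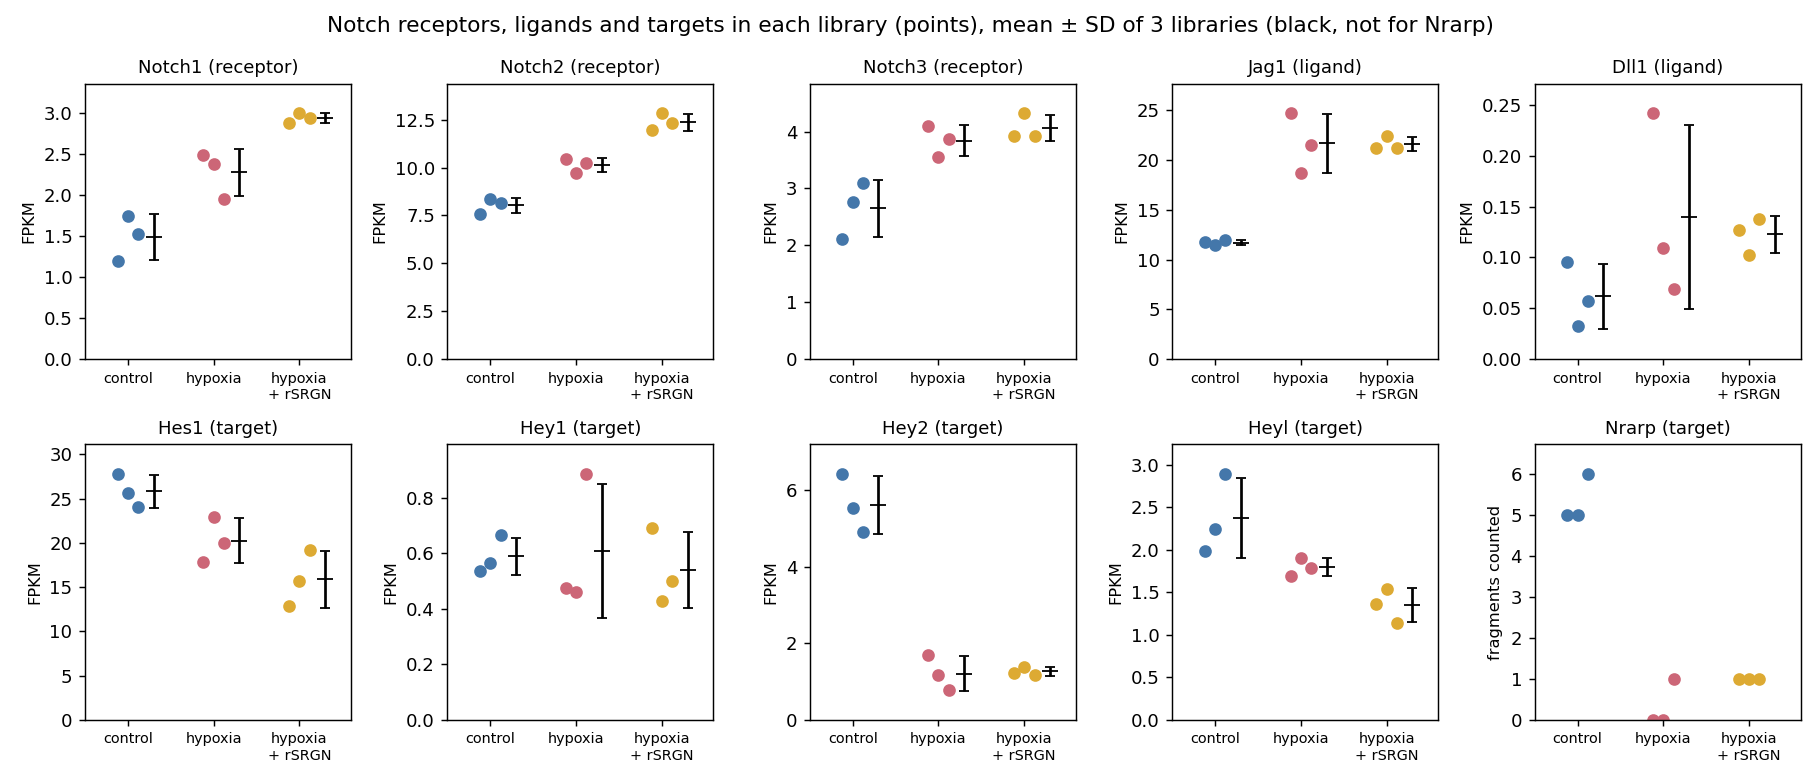
Level of each member in each library, in FPKM on linear axes from 0 (Nrarp in fragments counted), with points for the 3 libraries of a group and the mean ± SD in black. Notch1, Notch2 and Notch3 stand higher and Hey2 stands lower in all 6 hypoxic libraries than in the 3 control libraries, while Dll1 and Hey1 overlap between groups.

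Counted over the members, 2 of the 9 tested were called higher in hypoxia than in control (Notch1 and Jag1) and 1 lower (Hey2). Over all genes tested the shares were 26.4% higher and 25.1% lower, so the count of members called did not stand out from the table as a whole. With the adjusted p alone, 4 members were higher (Notch1, Notch2, Notch3 and Jag1) and 3 lower (Hes1, Hey2 and Heyl), against 36.8% and 34.1% of all genes. The adjusted p of Hes1 and Heyl did not stay below 0.05 with every library left out, as given above. By role, all 3 receptors were on the higher side and 3 of the 4 tested targets on the lower side. The median log2 fold change was 0.54 for the receptors and -0.38 for the targets, beside 0.05 for all genes tested. In hypoxia + rSRGN against control, 4 members were called higher (Notch1, Notch2, Notch3 and Jag1) and 3 lower (Hes1, Hey2 and Heyl), against 24.1% and 24.7% of all genes. Both of these comparisons use the same 3 control libraries, so they are not independent of each other.

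The comparison of hypoxia + rSRGN with hypoxia, which differ in the added protein as far as the labels say, called 0 of the 9 members with edgeR and 0 with DESeq2, where 3.13% of all genes were called in either direction. At an unadjusted p below 0.05, and without the fold limit, there were 4 members of 9 (Notch1, Notch2, Hes1 and Heyl), against 29.4% of all genes. At the adjusted p without the fold limit, 2 were higher (10.5% of all genes) and 1 was lower (6.11% of all genes). Notch1 had a log2 fold change of 0.37 (95% interval 0.12 to 0.61, edgeR adjusted p = 0.0353, 0.00490 to 0.171 over the alternatives). Notch2 had 0.29 (0.14 to 0.43, edgeR adjusted p = 0.00772, 2.75e-04 to 0.0583 over the alternatives). In each of these receptors the 3 libraries with rSRGN lay above the 3 without it.

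Hes1 had a log2 fold change of -0.35 with rSRGN against hypoxia (95% interval -0.60 to -0.10, edgeR adjusted p = 0.0480), and this depended on single libraries: without hypoxia + rSRGN replicate 1 it was -0.22 (edgeR adjusted p = 0.280, 0.00931 to 0.280 over the alternatives). Of 16 alternatives that change the fit, the adjusted p stayed below 0.05 in 15 for Notch2, in 12 for Notch1 and in 6 for Hes1. Heyl had -0.41 (95% interval -0.75 to -0.07, edgeR adjusted p = 0.0885), and its adjusted p was thus not below 0.05. Its libraries did not overlap between the groups, which was not set against all genes. For Jag1 and Hey2, the called members with the largest rise and fall in hypoxia, the differences were 0.00 (95% interval -0.18 to 0.17) and 0.06 (95% interval -0.35 to 0.47), so a fold change of 1.5 in either direction lay outside these intervals. In the same comparison 9 of the 11 cardiomyocyte markers were called higher, with a median log2 fold change of 0.77, and their part in the receptor values was not tested.

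**Figure D2:**
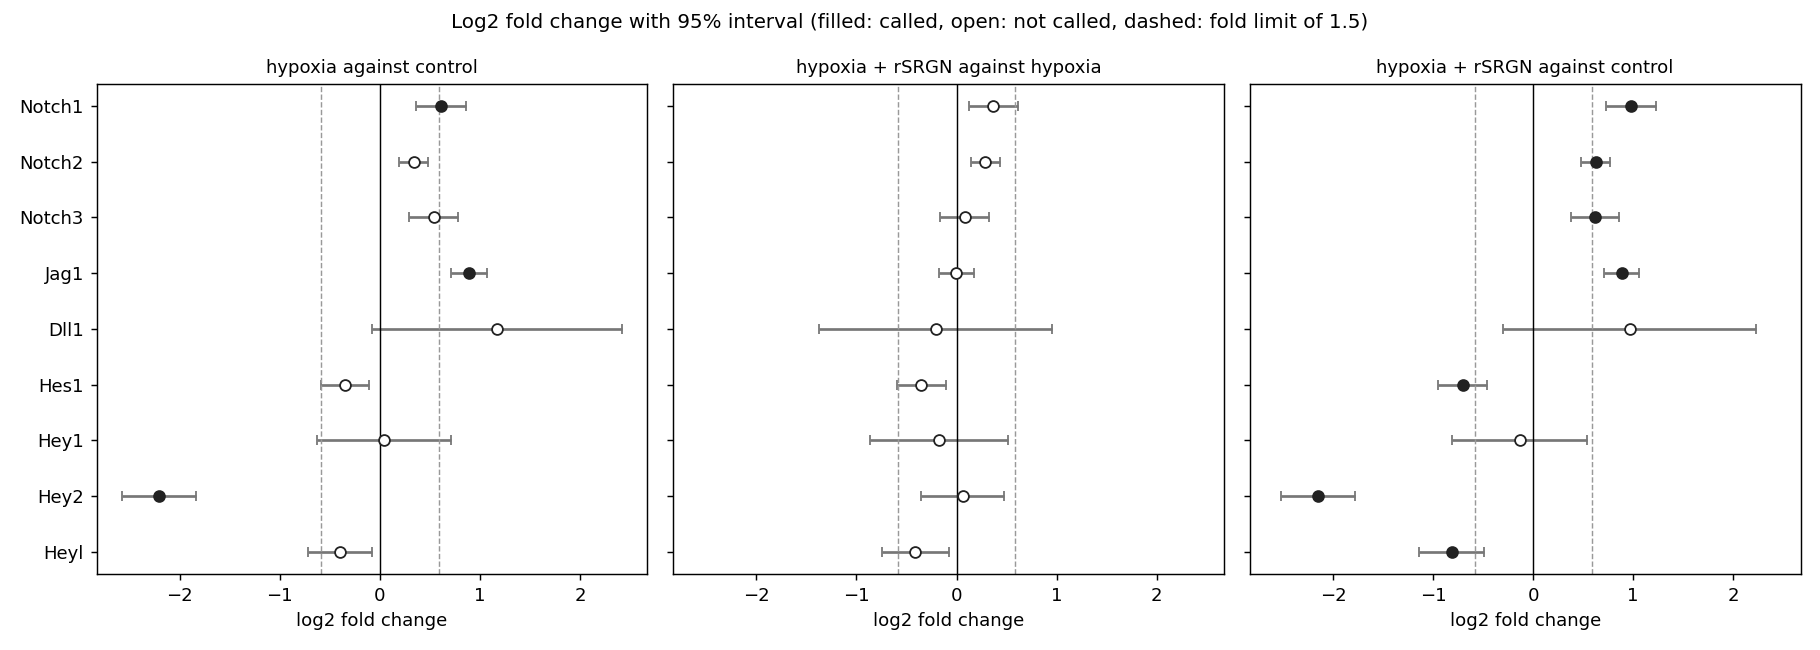
Log2 fold change of the 9 members tested with its 95% interval, in each of the 3 comparisons, with dashed lines at a fold change of 1.5 and filled points for called genes. Receptors and Jag1 lie to the right and Hes1, Hey2 and Heyl to the left in the panels against control, and the panel of hypoxia + rSRGN against hypoxia holds 0 filled points.

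Set side by side per length of exon, Hes1 was the most abundant member in control (25.8 ± 1.90 FPKM, SD, n = 3), followed by Jag1 (11.7 ± 0.284), Notch2 (8.03 ± 0.393), Hey2 (5.62 ± 0.758), Notch3 (2.65 ± 0.500), Heyl (2.37 ± 0.467), Notch1 (1.49 ± 0.280) and Hey1 (0.590 ± 0.0675). Among these neighbours the libraries of Notch3 and Heyl overlapped and the others did not. In hypoxia Jag1 (21.7 ± 3.00 FPKM) and Hes1 (20.3 ± 2.52 FPKM) overlapped at the top, and Hey2 (1.21 ± 0.453 FPKM) had moved below Notch3 (3.84 ± 0.275), Notch1 (2.27 ± 0.284) and Heyl (1.79 ± 0.104). In hypoxia + rSRGN Jag1 (21.6 ± 0.707 FPKM) was above Hes1 (15.9 ± 3.17 FPKM) in every library, while Hes1 overlapped Notch2 (12.4 ± 0.447) and Heyl (1.35 ± 0.200) overlapped Hey2 (1.26 ± 0.109).

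Notch2 was the main receptor transcript in all groups. Notch2 held 60.8% to 66.8% of the summed FPKM of Notch1 to Notch4 in control, 59.0% to 59.9% in hypoxia and 61.4% to 61.9% in hypoxia + rSRGN. The sum itself was 11.4 to 13.5, 16.5 to 17.7 and 19.4 to 20.8 FPKM in these groups, without overlap between them. For the ligands the make-up shifted: Jag1 was 82.6% to 85.1% of the summed FPKM of the Jagged and Delta genes in control, 96.1% to 97.0% in hypoxia and 95.5% to 96.8% in hypoxia + rSRGN. The share of Jag2, the other Jagged ligand, went from 13.05% to 16.2% in control down to 2.06% to 2.31% in hypoxia and 2.18% to 2.54% in hypoxia + rSRGN. Among Hes1, Hes6, Hey1, Hey2 and Heyl, the summed level was 48.4 to 52.2 FPKM in control, 29.7 to 33.7 in hypoxia and 23.2 to 29.7 in hypoxia + rSRGN. Hey2 made up 10.1% to 12.7% of it in control, 2.62% to 5.67% in hypoxia and 3.94% to 5.33% in hypoxia + rSRGN. These shares are descriptions and were not tested.

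**Figure D3:**
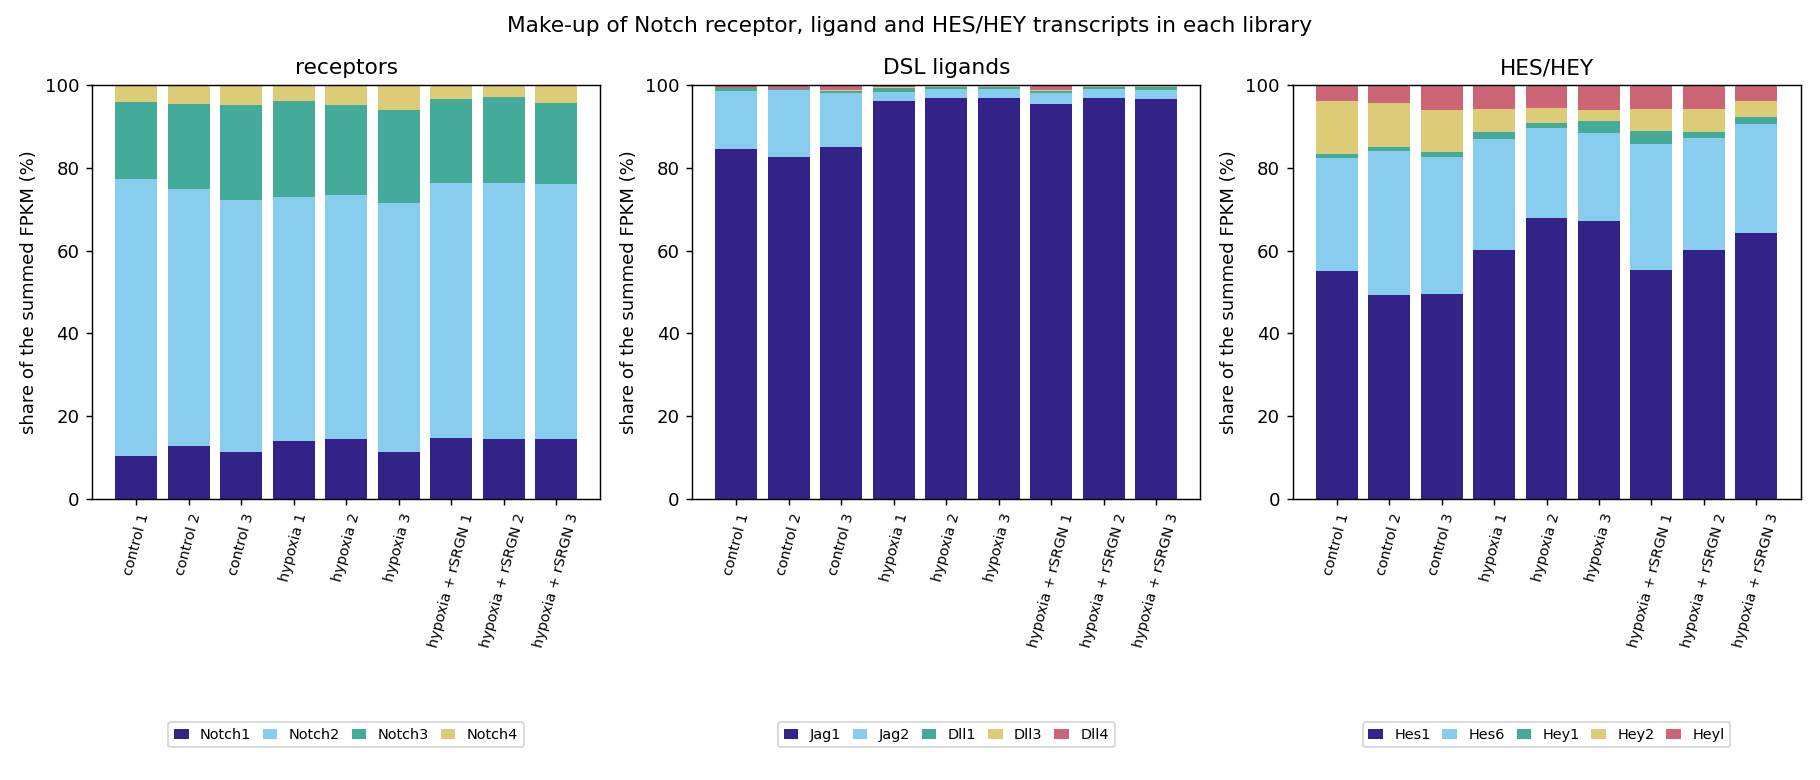
Share of each gene in the summed FPKM of the receptors (left), the Jagged and Delta ligands (middle) and the HES and HEY genes tested (right), one bar per library adding to 100%. Notch2 is the largest receptor share in every library, Jag1 takes nearly the whole ligand bar in the hypoxic libraries, and the band of Hey2 is narrower there than in control.

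Promoter sequences are shown for Hey2 and Jag1, the called members with the largest fall and the largest rise in hypoxia. They run from 250 bases before the RefSeq start site (GRCm38.p6) to 3 bases into the gene, written 5′ to 3′ on the gene's strand. In Hey2 (chr10:30842781-30843033, minus strand) the capitals mark GTGGGAA, the long form of the motif bound by RBPJ, read on either strand. In Jag1 (chr2:137116518-137116770, minus strand) they mark CACGNG, the class C E box bound by HES and HEY repressors, read on either strand. CACGNG was marked where a promoter held no GTGGGAA, so the motif shown for a gene was not chosen by its direction of change.
Hey2: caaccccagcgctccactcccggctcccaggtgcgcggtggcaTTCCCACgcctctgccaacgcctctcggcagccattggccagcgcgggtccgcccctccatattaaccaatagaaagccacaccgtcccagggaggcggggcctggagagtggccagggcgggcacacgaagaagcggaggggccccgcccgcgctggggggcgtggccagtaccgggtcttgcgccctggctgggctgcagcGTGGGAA
Jag1: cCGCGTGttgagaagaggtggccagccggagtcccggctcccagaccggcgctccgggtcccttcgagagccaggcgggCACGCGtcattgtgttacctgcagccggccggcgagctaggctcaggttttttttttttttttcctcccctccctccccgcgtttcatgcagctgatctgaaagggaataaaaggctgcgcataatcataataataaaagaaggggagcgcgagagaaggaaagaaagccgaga

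Hey2 held GTGGGAA at 2 places, at -207 to -201 on the opposite strand and at -4 to 3 on its own strand, counted from the start site with no position 0. Of 32851 RefSeq promoters, each from 250 bases before to 50 bases after a start, 6.38% held this motif and 0.256% held it 2 or more times. Of the 10 members 7 had a promoter in the table, with 8 windows since Dll1 has a pair of start sites; Hes1, Hey1 and Heyl had none. Among these 8 windows GTGGGAA and its core TGGGAA, which is contained in it, were in that of Hey2 alone, against 25.6% of all promoters for the core. CACGNG was in 6 of the 8 windows (27.5% of all promoters), the N box CACNAG in 5 (42.5%) and ACGTG, the core of the hypoxia response element, in 2 (19.6%), those of Notch3 and Nrarp. In Nrarp ACGTG overlaps the CACGTG that also counts as CACGNG, and CACGAG in Notch3 counts as both CACGNG and CACNAG. A match is a stretch of letters in these windows, and binding was not measured.

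Outside the members, 60 further Notch pathway genes were listed by role, of which 53 were tested. In hypoxia against control 12 of the 53 were called higher and 11 lower, with a median log2 fold change of 0.01, against 26.4% and 25.1% of all genes. Ligand genes went in opposite directions. Jag2 measured 1.92, 2.24 and 1.84 FPKM in control and 0.578, 0.398 and 0.516 FPKM in hypoxia, and it fell by 2.00 on the log2 scale (SE 0.17, edgeR adjusted p = 5.30e-10). Dlk1, a non-canonical ligand that lacks the domain needed to activate receptors, measured 6.72, 6.41 and 6.23 FPKM in control and 24.6, 21.9 and 24.5 FPKM in hypoxia, and it rose by 1.87 (SE 0.076, edgeR adjusted p = 1.59e-15). In each of these genes the control and hypoxia libraries did not overlap.

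The endothelial receptor Notch4 had a log2 fold change of 0.52 (edgeR adjusted p = 0.0279) and was not called, though it passed the limit with library size alone (0.59) and without hypoxia replicate 1 (0.65). It was 0.35 without hypoxia replicate 3 and 0.37 without control replicate 1, with edgeR adjusted p of 0.159 and 0.146 (0.0110 to 0.159 over the alternatives). The endothelial ligand Dll4 had -0.67 (95% interval -2.00 to 0.66) from 4 to 15 fragments per library, with -1.11 to -0.45 when 1 library was left out, and Dlk2 had 0.07 (-1.17 to 1.31). For Dll3 there were 1, 6 and 10 fragments in the 3 groups, too few to test. Of the 10 endothelial markers 8 were called lower in hypoxia than in control, and their part in these values was not tested.

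Among the genes that handle ligands and receptors, 1 of 4 tested for receptor glycosylation was called higher, Rfng (Radical fringe, log2 fold change 0.71), a call lost without hypoxia replicate 2 (0.55). Of the 4 ubiquitin ligases that drive ligand endocytosis, Mib2 rose (1.06) and Mib1 fell (-0.71). Of 10 genes for receptor cleavage 1 was called higher and 2 lower, led by Aph1c, a subunit of γ-secretase (-1.72, from 0.699 to 0.876 FPKM in control to 0.167 to 0.268 in hypoxia).

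Of 8 genes for nuclear activation 1 was called higher and 2 lower. Kat2b, a histone acetyltransferase that joins the activation complex, fell from 21.9, 22.6 and 24.8 FPKM in control to 6.26, 5.50 and 5.21 FPKM in hypoxia (log2 fold change -2.03, SE 0.087, edgeR adjusted p = 4.46e-15). Rbpj itself had 0.41 (SE 0.075, edgeR adjusted p = 5.29e-05), inside the fold limit. Of 13 corepressor genes 4 were called higher and 1 lower, led by Tle3 of the Groucho family (1.35, with 2.02 to 2.42 FPKM in control and 5.49 to 5.73 in hypoxia). Of 8 genes for turnover and inhibition 3 were called higher and 3 lower, led by Dtx3l (-1.50). Hes6, the other HES gene tested, fell by 1.14 on the log2 scale, from 13.6, 18.2 and 15.9 FPKM to 7.96, 7.29 and 6.34 FPKM. No count of a role was tested as a set.

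**Figure D4:**
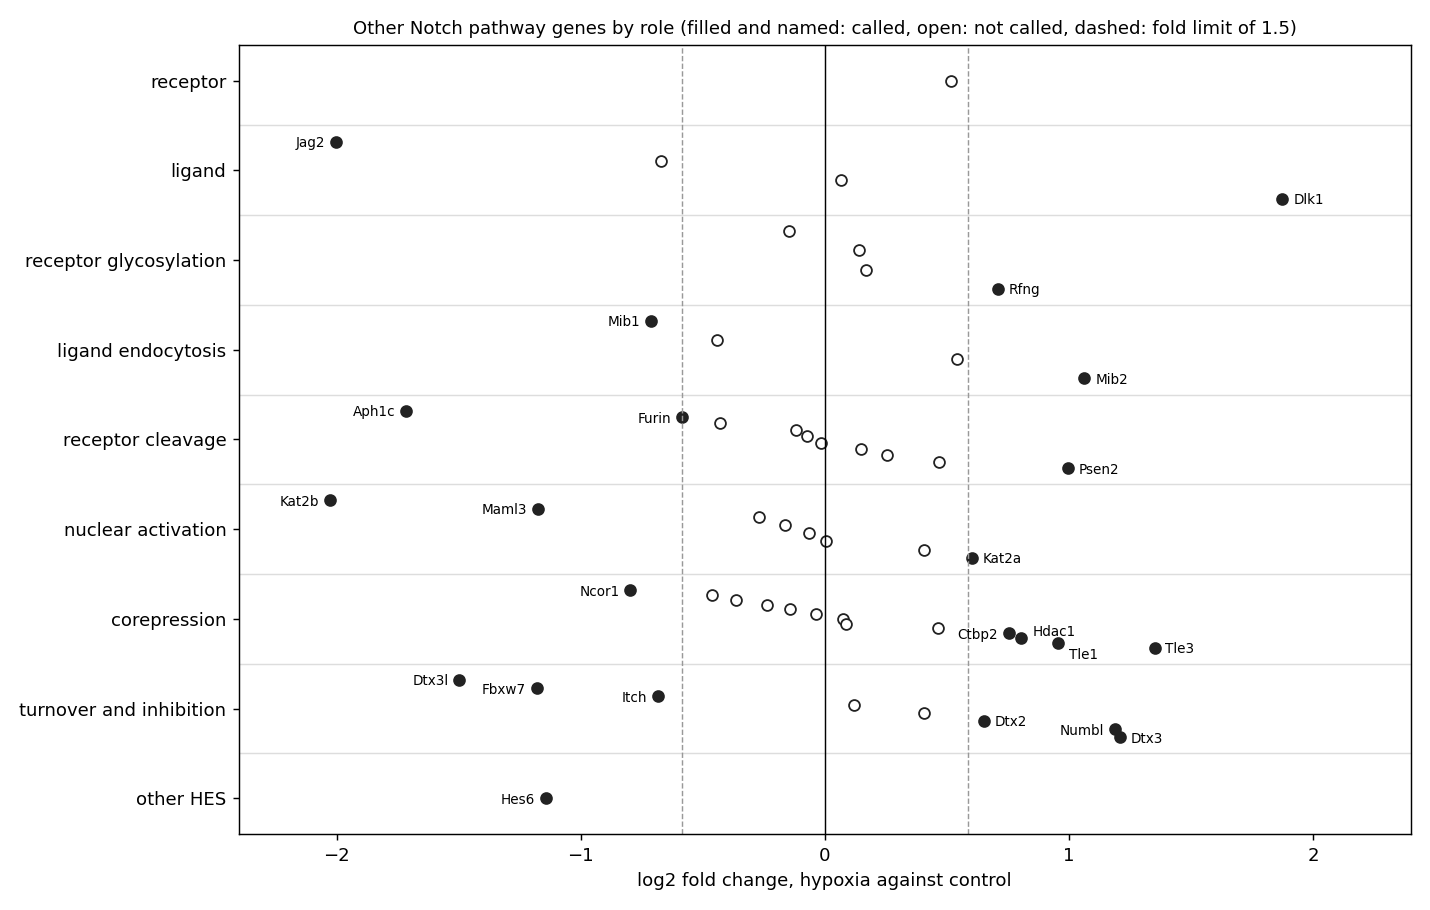
Log2 fold change in hypoxia against control of the 53 other Notch pathway genes tested, in rows by role, with dashed lines at a fold change of 1.5 and filled, named points for the 12 genes called higher and the 11 called lower. Called genes lie on both sides in the rows of ligands, ligand endocytosis, receptor cleavage, nuclear activation, corepression and turnover.

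In hypoxia + rSRGN against hypoxia 0 of the 53 pathway genes were called with edgeR or DESeq2, and 22 had an unadjusted p below 0.05, against 29.4% of all genes. Without the fold limit 11 were higher and 4 lower at the adjusted p, beside the 10.5% and 6.11% of all genes. Of the 8 genes for nuclear activation, 4 were among the higher ones: Rbpj (log2 fold change 0.36), the Mastermind-like coactivators Maml1 (0.46) and Maml2 (0.51) and Kat2b (0.44). The other higher ones were the corepressor genes Ncor1 (0.31) and Tle4 (0.37), the inhibitors Numb (0.32) and Itch (0.32), the ubiquitin ligase gene Mib1 (0.44) and the receptor-cleaving proteases Adam10 (0.37) and Adam17 (0.28). The 4 lower ones were Dlk1 (-0.24), Rfng (-0.43), Hdac1 (-0.27) and Dtx3 (-0.26). Most of these were named after their values were seen, and genes of activating and of repressing roles were both among the higher ones. Of the 11 cardiomyocyte markers 9 were also called higher in this comparison (median of the 11, 0.77), and their part in these values was not tested. Rbpj measured 8.63, 8.62 and 8.39 FPKM in hypoxia and 11.4, 11.5 and 10.1 FPKM in hypoxia + rSRGN, and Maml2 measured 4.35, 3.59 and 3.55 FPKM against 5.84, 5.13 and 5.39 FPKM. The groups did not overlap in either gene. Maml3, the third gene of that family, had -0.02 (95% interval -0.42 to 0.37). Maml2 alone passed the fold limit when hypoxia replicate 1 was left out (0.61). In hypoxia + rSRGN against control, 11 of the 53 were called higher and 9 lower, with a median of 0.07, against 24.1% and 24.7% of all genes.

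For each member, the gene with the most similar level over the 9 libraries was sought among 14249 genes by Pearson's r of log2 counts scaled for depth. It was Hivep3 for Notch1 (r = 0.997), Rhbdd1 for Notch2 (r = 0.994), Dok2 for Notch3 (r = 0.983), Fam174c for Jag1 (r = 0.995), Rsph9 for Dll1 (r = 0.949), Elac2 for Hes1 (r = 0.984), Zscan22 for Hey1 (r = 0.891), Rapsn for Hey2 (r = 0.992) and Lix1 for Heyl (r = 0.987). These are the highest of many correlations over 9 libraries that share the group differences and the scaling, and they are a description. The lowest 2 values belong to Hey1 and Dll1, the tested members with the fewest fragments.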

How the data were processed

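RNA was sequenced from 9 NMVM cultures, and groups were taken from the sample titles. The counts deposited by the authors are whole numbers of fragments for each gene and are not normalized. Per the file headers they came from featureCounts 2.0.1 on exons of GENCODE release 25, paired-end and with no strand option. The submitters' processing notes name HISAT2 and mm10, and the HISAT2 version is not given in the sources used here. The deposited table also gives an exon length per gene, used for FPKM. All 9 count columns were used (0 unused).

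In R 4.3.3, edgeR 4.0.16 was run with filterByExpr, TMM scaling, a mean per group over 9 libraries and quasi-likelihood tests, with p-values adjusted by Benjamini-Hochberg over all genes tested. Calls needed an adjusted p under 0.05 and a change of 1.5-fold or more. The procedure was tested on simulated data with 200 genes changed 2-fold, of which 75% to 80.5% were recovered. Far more genes were called against control in the real data, and changes of that breadth were not simulated. Libraries of a group differed by more than sampling noise (chi-square per degree of freedom 3.63 to 13.1). Members, lists, markers and motifs were chosen with earlier results of these data known. Named pathway genes were receptors, ligands, any gene called with rSRGN against hypoxia and, per role, the called gene with the largest change in hypoxia. Others were named after their values were seen. Alternatives were DESeq2 1.42.0, RLE scaling, library size alone, filters of 1 count in all or 10 in every library, unadjusted P, no fold limit, a fit of the compared groups, a replicate block, and omission of each library. Exon overlaps came from coordinates in the deposited table. Figures were drawn with matplotlib 3.10.9.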

Additional observations from a re-analysis of the deposited data

How the results depend on the processing

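Against control, the members called kept their direction in every alternative, and the number called was 2 to 4 in hypoxia and 5 to 7 in hypoxia + rSRGN with each library left out. Without a fold limit the counts were 7 members in hypoxia against control and 3 in hypoxia + rSRGN against hypoxia, and for the other pathway genes 35, 34 (hypoxia + rSRGN against control) and 15. With libraries left out, 0 to 1 pathway genes were called in hypoxia + rSRGN against hypoxia. In that comparison all genes called numbered 525, 2790 without a fold limit, 899 at the unadjusted P, and 321 (without hypoxia replicate 3) to 699 (without hypoxia replicate 2) with a library left out. The causes were not tested, except that a looser threshold calls more genes by construction.

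Signs turned for differences that were not called, which were near 0 or, as for Dll1 and Dlk2, rested on few fragments and varied widely. Jag1 in hypoxia + rSRGN against hypoxia was 0.0094 with a filter of at least 1 count, 0.011 with at least 10 counts in every library, 0.026 with DESeq2 and with RLE scaling, 0.014 with only the groups compared, 0.0042 with the replicate block, and -0.096 to 0.10 with libraries left out. In the same comparison, leaving out libraries gave -0.17 to 0.38 for Hey2, -0.38 to 0.20 for Hey1 and -0.53 to 0.45 for Dll1. Hey1 in hypoxia against control was -0.0094 with a filter of at least 1 count and -0.33 to 0.20 with libraries left out, and against control in hypoxia + rSRGN it was -0.34 to 0.014. Dlk2 in hypoxia against control was -0.64 to 0.51.

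Same-numbered libraries of different groups did not deviate together (correlations of -0.037 to 0.021 over 9 pairs), so the numbers were not taken as pairs. With the replicate block, 3 members were called for hypoxia and 7 for hypoxia + rSRGN, each against control, and 0 between the hypoxic groups, the same counts as without it. The pathway counts with the block were 22, 20 and 0 in that order. With library size alone the median of all genes in hypoxia against control was 0.12, against 0.05 with TMM. The values of Dll1, Hey1 and Nrarp rest on 0 to 50 fragments per library, and the part of depth in their spread was not tested.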

Other observations

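Several further Notch pathway genes had too few fragments to test, and their summed counts over the 3 libraries of control, hypoxia and hypoxia + rSRGN are given without a test, with intervals that cover counting error only. Hes7, the HES gene known from somite formation, had 10, 22 and 23 fragments, with control at 0.372 times hypoxia (exact 95% interval 0.157 to 0.818) and 0.377 times hypoxia + rSRGN (0.160 to 0.824). Hes2 had 0, 9 and 10, Hes3 had 0, 3 and 2, and Hes5 had 0, 4 and 0. All 9 Hes2 fragments in hypoxia came from replicate 3, and all 4 of Hes5 came from hypoxia replicate 1. The glycosyltransferase Mfng (Manic fringe) had 49, 11 and 12 fragments, with control at 3.64 times hypoxia (exact 95% interval 1.87 to 7.77) and 3.54 times hypoxia + rSRGN (1.86 to 7.32). Dtx1, a ubiquitin ligase of the Deltex family, had 7, 17 and 27 fragments, with control at 0.337 times hypoxia (exact 95% interval 0.118 to 0.854) and 0.225 times hypoxia + rSRGN (0.0827 to 0.530). By library, Dtx1 had 11, 1 and 5 fragments in hypoxia, and Mfng had 6, 16 and 27 in control.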
